A study of Homo sapiens with 12 samples.

Results

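Messenger RNA was compared between human neuroblastoma SHEP cells in which a hairpin against TCEAL1 was switched on while a MYCN-ER fusion was active (OHT_Dox, 3 libraries) and the same cells with the fusion active and the hairpin off (OHT, 3 libraries). The comparison takes 6 of the 12 libraries of the study, and the 18070 genes of 28576 that reached a normalised level of 0.5 CPM (read counts scaled to the total of their library) in at least 3 of these 6. The other 6 libraries had doxycycline alone (Dox, 3 libraries) or neither compound (Ctrl, 3 libraries), and are used here to set the effect of the hairpin with MYCN-ER active beside its effect without. All 4 groups carried both constructs. OHT_Dox cells had 200 nM 4-hydroxytamoxifen (OHT) and 1 µg/ml doxycycline (Dox), OHT cells had 200 nM OHT only, Dox cells had 1 µg/ml doxycycline only, and Ctrl cells had neither. No group with another hairpin, or with doxycycline and no hairpin, was analysed here, so the hairpin and doxycycline itself cannot be told apart. The labels give no treatment times and do not say whether the replicates were separate cultures or whether the line is 1 clone, so the p-values reflect the scatter of these libraries alone, which may be technical.

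TCEAL1 belongs to a small family of X-linked proteins named for their likeness to TFIIS, the elongation factor that restarts RNA polymerase II after it has backtracked. The title of the study places TCEAL1 in a complex with the deubiquitinases USP11 and USP7 that acts on paused polymerase. MYCN is the MYC family transcription factor amplified in aggressive neuroblastoma. In the ER fusion its activity depends on tamoxifen, which frees the fused estrogen receptor domain from chaperones in the cytoplasm. SHEP is a substrate-adherent neuroblastoma line of mesenchymal character without amplified MYCN. The comparison asks what TCEAL1 depletion does to the transcriptome when MYCN is driven.

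The 6 libraries held 44466458 reads (OHT_Dox replicate 3) to 55138429 reads (OHT replicate 1) on the listed genes, so that 1 read was worth 0.0181 to 0.0225 CPM. All 16 mesenchymal neuroblastoma markers looked up passed the filter, with summed levels of 4270 to 4415 CPM in OHT_Dox and 4770 to 5052 CPM in OHT. Of the adrenergic neuroblastoma markers 7 of 16 passed, with sums of 159 to 167 CPM in OHT_Dox and 140 to 157 CPM in OHT. Of the epithelial markers 4 of 12 passed, and the sums were 832 to 955 CPM in OHT_Dox and 1192 to 1250 CPM in OHT, nearly all from KRT8 and KRT18. The haematopoietic markers summed to 21.1 to 25.2 CPM in OHT_Dox and 21.8 to 22.6 CPM in OHT, with 1 of 10 passing the filter. None of the 7 endothelial markers passed, and their sums were 0.27 to 0.436 CPM in OHT_Dox and 0.327 to 0.814 CPM in OHT. Neuronal and glial markers, 5 of 10 of them passing, summed to 29.6 to 34 CPM in OHT_Dox and 36.5 to 39.1 CPM in OHT.

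TCEAL1 itself, the target of the hairpin, had 2.58, 2.5 and 1.73 CPM in the OHT_Dox libraries and 8.23, 9.75 and 8.99 CPM in the OHT libraries. These values rest on 77 to 138 reads with the hairpin and 454 to 520 reads without it, and the groups did not overlap. The mean fell to 25.2% of the OHT mean (2.27 ± 0.468 CPM in OHT_Dox and 8.99 ± 0.76 CPM in OHT, SD, n = 3 libraries each). On the log2(CPM + 0.5) scale, used for every fold change below, the change was -1.79 ± 0.14 (SE; limma, adjusted p = 6.41e-07). The pseudocount of 0.5 CPM makes fold changes of low genes smaller than the ratio of their levels. Without OHT the hairpin gave a change of -1.72 ± 0.12 (limma, adjusted p = 5.83e-07), from 2.62, 2.54 and 2.74 CPM in the Dox libraries and 9.71, 9.11 and 10.7 CPM in the Ctrl libraries. In these bulk libraries, fewer cells that express a gene and less RNA of it per cell cannot be told apart.

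The partners of TCEAL1 in the described complex did not pass the test. USP11 had 106, 101 and 110.4 CPM with OHT and Dox, against 99.9, 94.6 and 108 CPM with OHT, and its change was 0.067 ± 0.064 (limma, adjusted p = 0.71). USP7 had 174, 172 and 162 CPM with OHT and Dox, against 176, 157 and 170.3 CPM with OHT, a change of 0.012 ± 0.059 (limma, adjusted p = 0.955). TCEA1, which encodes the widely expressed form of TFIIS, had 160.2, 169.7 and 149.9 CPM with OHT and Dox, against 162, 176 and 168 CPM with OHT, a change of -0.079 ± 0.06 (limma, adjusted p = 0.63). Of 12 tested members of the TCEAL, BEX and TFIIS families, TCEAL1 and TCEAL9 were lower and the other 10 were not called. TCEAL9, the family member also known as WBP5, had 27.5, 25.7 and 22.3 CPM with OHT and Dox, against 34.6, 39.2 and 37.6 CPM with OHT (change -0.56 ± 0.086; limma, adjusted p = 9.70e-04). Its libraries did not overlap, and it was also lower in Dox than in Ctrl, by -0.45 ± 0.067 (limma, adjusted p = 0.00184). None of 16 genes of USP7 and USP11 with their described partners, none of 12 RNA polymerase II subunit genes and none of 47 pausing, elongation and termination factors was called, though 1 polymerase subunit gene was higher without OHT replicate 1. With 2.48% of all tested genes called, few calls would fall in lists of this size, so their absence says little.

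MYCN, whose counts hold any reads of the fusion that fall in the gene model, had 429, 376 and 470.1 CPM with OHT and Dox, against 644, 492 and 471 CPM with OHT. OHT replicate 1 was the highest of the 6 libraries and OHT_Dox replicate 3 lay just below OHT replicate 3, so the groups stood apart by a narrow gap. The change of -0.33 ± 0.095 did not pass the test (limma, adjusted p = 0.0908). It was -0.19 without OHT replicate 1 (limma, adjusted p = 0.275), and -0.41 without OHT replicate 3, where it passed (limma, adjusted p = 0.0401). It also passed with TMM scaling (-0.35), with the length and GC trend removed (-0.38) and with the replicate block, and not in edgeR or DESeq2. MYC, the sister gene of MYCN, fell. It had 6.87, 5.8 and 7.11 CPM with OHT and Dox, against 9.74, 11.3 and 11.9 CPM with OHT, a change of -0.70 ± 0.12 (limma, adjusted p = 0.00193), with no overlap between the groups. In the libraries without OHT, MYC had 24.2, 21.2 and 20.5 CPM in the Dox libraries and 30.1, 29.9 and 29.9 CPM in the Ctrl libraries. The remaining 11 tested genes of the MAX network were not called.

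Across the transcriptome 449 of 18070 tested genes passed an adjusted p of 0.05 in limma (2.48%), of which 345 were lower in OHT_Dox (1.91%) and 104 were higher (0.576%). Most changes were small. The median log2 change was -0.45 among the lower genes, 0.47 among the higher genes and 0.019 over all tested genes, and 17 lower and 6 higher genes moved by more than 2-fold. The 3 OHT_Dox libraries lay below all 3 OHT libraries for 1524 genes (8.43%) and above all 3 for 1915 genes (10.6%). Protein-coding genes made up 297 of the 345 lower genes and 78 of the 104 higher genes, against 13224 of the 18070 tested. Lower genes had a median transcript length of 4268 bases and a median GC content of 46.9%, and higher genes 2979 bases and 53.2%, against 2880 bases and 48.2% over all tested genes. GC content also moved with single libraries: the deviation of OHT_Dox replicate 2 from its group mean fell with GC (Spearman's rho across genes -0.52) and that of OHT_Dox replicate 3 rose with it (0.54). With a trend on length and GC removed from each library, all 449 genes were called again, among 605 lower and 243 higher calls. Leaving out OHT_Dox replicate 1 gave 197 lower and 38 higher genes, leaving out OHT replicate 1 gave 206 lower genes, and leaving out OHT_Dox replicate 2 or OHT replicate 2 gave 57 and 63 higher genes. In each of the 6 fits without 1 library, 156 of the lower and 30 of the higher genes were called.

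**Figure D1:**
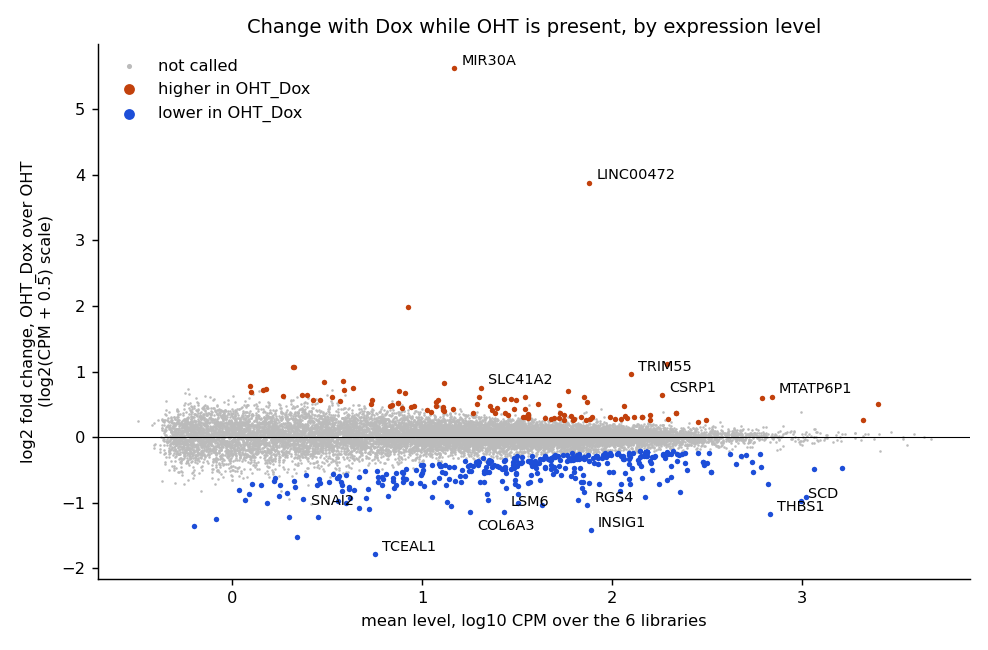
Log2 fold change of OHT_Dox over OHT for each of the 18070 tested genes (y axis) against its mean level in log10 CPM over the 6 libraries (x axis), with genes called higher in orange, called lower in blue and the rest in grey. MIR30A and LINC00472 stand above all other genes at 5.62 and 3.88, TCEAL1 has the most negative change at -1.79, and the 345 lower genes outnumber the 104 higher ones.

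Genes of sterol synthesis and uptake were lower as a group. This list, like the others here, was chosen with earlier results of these data known. Its counts therefore describe these libraries and are not an independent test. Cholesterol is built from acetyl-CoA through the mevalonate pathway, and the SREBP transcription factors drive most genes of this pathway. When sterols are plentiful, INSIG1 holds SREBP and its escort SCAP in the endoplasmic reticulum, and INSIG1 is itself an SREBP target. Of the 20 tested genes 15 fell and none rose, beside 1.91% of all tested genes called lower and 0.576% called higher. All 20 had a negative change, with a median of -0.38 against 0.019 over all tested genes. In 17 of the 20 the OHT_Dox libraries lay below all OHT libraries, against 8.43% of all tested genes. The summed level of the 20 genes was 1361, 1292 and 1390 CPM in OHT_Dox and 2101, 1786 and 1639 CPM in OHT.

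The largest of these changes was in INSIG1, the feedback regulator. INSIG1 had 41.8, 38.6 and 41.9 CPM in the OHT_Dox libraries and 151, 107 and 81.5 CPM in the OHT libraries, a change of -1.42 ± 0.14 (SE; limma, adjusted p = 5.36e-06), and fell to 36% of the OHT mean. The OHT libraries were widely spread, with replicate 1 the highest, and all 3 stood above the tight OHT_Dox group. Without OHT replicate 1 the change was -1.19 (limma, adjusted p = 0.000263). Among the early enzymes of the pathway, HMGCS1, which makes HMG-CoA, had 32.7, 32.8 and 32.2 CPM with OHT and Dox, against 57, 49.9 and 47.6 CPM with OHT (change -0.65 ± 0.075; limma, adjusted p = 4.61e-05). IDI1, the isopentenyl diphosphate isomerase, had 51.6, 56.9 and 51.8 CPM with OHT and Dox, against 94.7, 91.9 and 73.9 CPM with OHT (change -0.69 ± 0.083; limma, adjusted p = 6.75e-05). Both were lower in every OHT_Dox library than in any OHT library.

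Genes of the later steps were lower too. LSS, the cyclase that forms lanosterol, had 81.3, 67.5 and 88.2 CPM with OHT and Dox, against 135, 107 and 101 CPM with OHT (change -0.53 ± 0.099; limma, adjusted p = 0.00568). MSMO1, a demethylase of methylated sterols, had 25.7, 25 and 25.1 CPM with OHT and Dox, against 43.1, 34 and 35.3 CPM with OHT (change -0.55 ± 0.087; limma, adjusted p = 0.00114). The groups did not overlap for either gene. STARD4, which carries cholesterol within the cell, had 37.5, 38.9 and 34.9 CPM with OHT and Dox, against 56.7, 49 and 48.2 CPM with OHT (change -0.46 ± 0.076; limma, adjusted p = 0.00189). FDFT1, the squalene synthase, changed by -0.37 ± 0.074, FDPS by -0.40 ± 0.084, SQLE by -0.32 ± 0.063, MVD by -0.47 ± 0.10, DHCR7 by -0.44 ± 0.1 and CYP51A1 by -0.28 ± 0.064, all called. SREBF2, the gene of SREBP2, was not called at -0.26 ± 0.09 (limma, adjusted p = 0.185), nor were MVK, HSD17B7, SC5D and NSDHL, whose changes ran from -0.25 for MVK to -0.11 for NSDHL. Of the 15 calls, 10 were made without OHT replicate 1 and 10 without OHT_Dox replicate 2. INSIG1, HMGCS1, IDI1, MSMO1, LSS, STARD4 and FDFT1 were among those called in each fit without 1 library. LSS was not called with all 12 libraries in 1 fit (limma, adjusted p = 0.0709). DHCR7 was not called in that fit (limma, adjusted p = 0.217) or in DESeq2 (adjusted p = 0.144). CYP51A1 was called in 2 of the 6 fits without 1 library.

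Genes of fatty acid synthesis, a list drawn up after the values were seen, showed 8 lower and no higher genes of 20 tested, with a median of -0.27. The share called lower over all tested genes was 1.91%. The alternatives gave 3 to 11 lower genes, the fewest being 3 with no filter on low values and 4 with all 12 libraries in 1 fit. SCD, the desaturase that makes oleate, had 711, 593 and 676 CPM in the OHT_Dox libraries and 1649.9, 1229.7 and 1076 CPM in the OHT libraries, a change of -0.98 ± 0.11 (limma, adjusted p = 2.21e-05). FASN, the fatty acid synthase, had 725, 588 and 833 CPM with OHT and Dox, against 1921, 1111 and 1115 CPM with OHT (change -0.91 ± 0.15; limma, adjusted p = 0.0019). In both genes OHT replicate 1 was well above the other OHT libraries, and the groups did not overlap. Without that library the changes were -0.81 for SCD and -0.65 for FASN, both still called. FASN was not called with all 12 libraries in 1 fit (limma, adjusted p = 0.0501) or with no filter (0.075), nor was LPIN1 (0.0892 and 0.0894). The desaturases FADS1 and FADS2 changed by -0.49 ± 0.065 and -0.28 ± 0.053, with 215, 205 and 199 CPM with OHT and Dox, against 319.8, 289 and 265 CPM with OHT for FADS1. LPIN1, a phosphatidate phosphatase, changed by -0.57 ± 0.11 and ACSL3, an acyl-CoA synthetase, by -0.31 ± 0.055. SREBF1, which encodes the SREBP form that favours fatty acid genes, had 463, 403 and 559.8 CPM with OHT and Dox, against 709, 577 and 564 CPM with OHT (change -0.38 ± 0.096; limma, adjusted p = 0.0413), and its OHT_Dox replicate 3 came close to OHT replicate 3. The calls of SREBF1 and of ACLY, the citrate lyase (change -0.31 ± 0.072), were lost without OHT replicate 1 (limma, adjusted p = 0.142 and 0.103) and without some other libraries. The summed level of the 21 listed genes was 3537, 3197 and 3640 CPM in OHT_Dox and 6356, 4819 and 4599 CPM in OHT, so OHT replicate 1 was the highest library here, as for the sterol genes and MYCN. The part of that library, and of the MYCN level, in the difference was not tested beyond the fits without it.

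Without OHT most of these genes were not called. In Dox against Ctrl, 1 of the 20 sterol genes was lower (MVD, -0.35 ± 0.095; limma, adjusted p = 0.0371), beside 420 of 18107 tested genes (2.32%), and none of the 20 fatty acid genes was called. INSIG1 had 47.3, 37.5 and 52.6 CPM in the Dox libraries and 87, 42.5 and 68.2 CPM in the Ctrl libraries, a change of -0.47 ± 0.18 (limma, adjusted p = 0.108). SCD had 591, 468 and 679 CPM in the Dox libraries and 969.9, 434 and 708 CPM in the Ctrl libraries, with overlapping groups. The summed sterol genes had 1396, 1268 and 1469 CPM with Dox alone, against 1730, 1267 and 1557 CPM in Ctrl, and Ctrl replicate 2 was the low library. The difference between the effect with OHT and the effect without, tested as an interaction over all 12 libraries, was negative for 19 of the 20 sterol genes (median -0.28). None passed adjustment (smallest adjusted p = 0.221 in limma), and 10 of 20 had an unadjusted p under 0.05, against 15.4% of all tested genes. Other lists also had many genes at this level, with 7 of 13 integrins (median -0.26) and, in the other direction, 27 of 51 cytosolic ribosomal proteins (median 0.19) and 6 of 12 RNA polymerase II subunits (median 0.14). The interaction was -0.95 ± 0.28 for INSIG1 (unadjusted p = 0.00339), -0.59 ± 0.15 for STARD4 (unadjusted p = 8.40e-04) and -0.76 ± 0.28 for SCD (unadjusted p = 0.0139), before adjustment in limma.

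**Figure D2:**
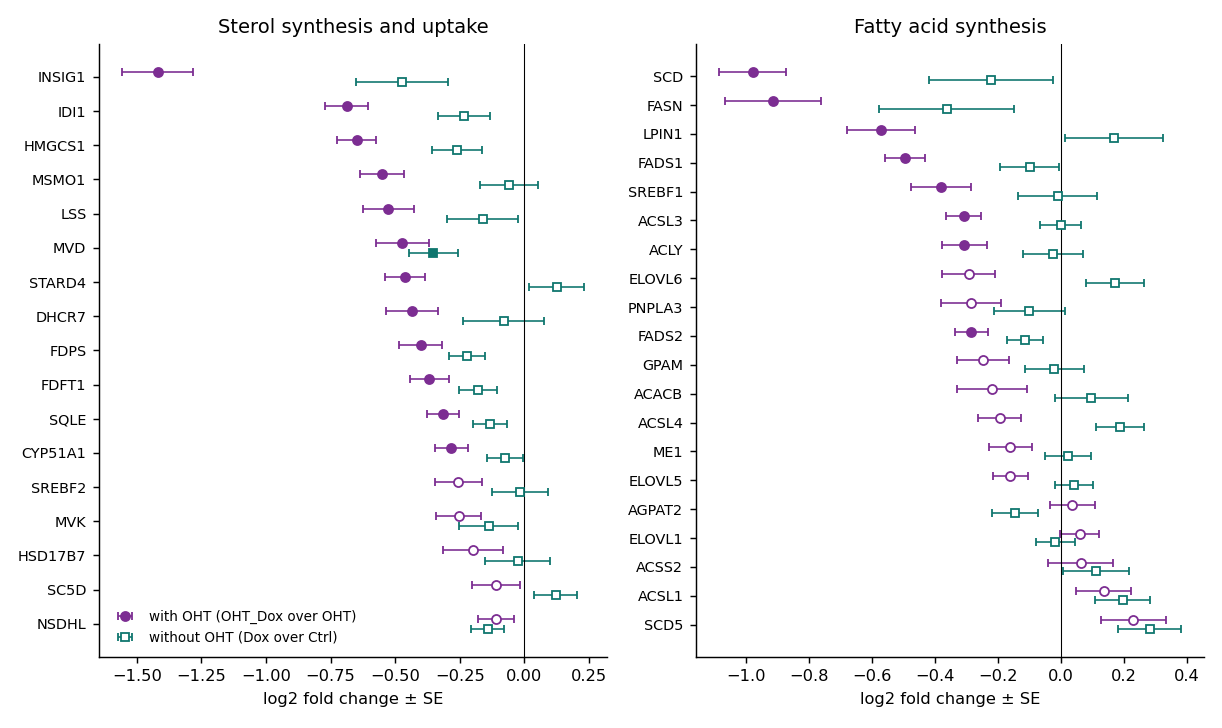
Log2 fold change ± SE of 17 of the tested sterol genes (left) and 20 tested fatty acid genes (right), for OHT_Dox over OHT (purple circles) and Dox over Ctrl (green squares), with filled symbols for called genes. All 17 sterol genes shown lie left of 0 with OHT and 12 are filled, while without OHT MVD alone is filled.

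The promoters of 15 of the 20 sterol genes have an entry in RefSeq (GRCh38.p14, 250 bases before to 50 after the start). The CCAAT box was looked for because the factor NF-Y, which binds it, is known to work with SREBP, the E-box CACGTG because MYC family proteins and SREBP1 bind it, and TCACCCCAC as a textbook sterol regulatory element. CCAAT, on either strand, was in 14 of the 15, against 43.1% of tested genes with an entry and 34.6% of all 35116 promoters. The 14 include SREBF2, MVK, HSD17B7, SC5D and NSDHL, which were not called lower. CACGTG was in 3 of the 15 (INSIG1, LSS and SC5D), against 12.2% of tested genes and 7.26% of all promoters. TCACCCCAC was in SREBF2 only, against 0.6% of tested genes and 0.43% of all promoters. No motif contains another, a match is a description of the sequence, and binding was not measured in these libraries. The promoters of the regulator and of an early enzyme are shown, as the gene with the largest fall of the list and as an example with CCAAT boxes, INSIG1 at chr7:155297628-155297927 on the plus strand with CACGTG in capitals, and HMGCS1 at chr5:43313363-43313662 on the minus strand with CCAAT or its complement ATTGG in capitals. INSIG1 is also among the 14 with CCAAT, and its ATTGG is left in small letters.
INSIG1: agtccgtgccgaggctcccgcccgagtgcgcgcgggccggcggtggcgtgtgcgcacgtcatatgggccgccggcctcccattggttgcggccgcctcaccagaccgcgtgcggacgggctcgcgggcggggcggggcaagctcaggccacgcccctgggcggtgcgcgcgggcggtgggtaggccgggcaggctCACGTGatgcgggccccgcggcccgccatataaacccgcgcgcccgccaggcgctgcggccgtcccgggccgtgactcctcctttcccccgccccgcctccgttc
HMGCS1: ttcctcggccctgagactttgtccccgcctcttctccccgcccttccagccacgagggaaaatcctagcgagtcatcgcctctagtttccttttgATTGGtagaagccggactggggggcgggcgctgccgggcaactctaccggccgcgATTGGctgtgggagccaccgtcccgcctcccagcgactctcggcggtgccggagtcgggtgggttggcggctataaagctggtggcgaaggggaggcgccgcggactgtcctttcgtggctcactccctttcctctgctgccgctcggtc

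Part of the genes of the extracellular matrix were lower, beside 1.91% of all tested genes called lower and 0.576% called higher, and most were not called. Collagens form the fibrils and networks of the matrix, and of 18 tested collagen genes 6 fell, 1 rose and 11 were not called, with a median of -0.19. COL6A3, a chain of the microfibrillar collagen VI, had 11.6, 11.4 and 9.81 CPM in the OHT_Dox libraries and 29.1, 21.3 and 24.1 CPM in the OHT libraries, a change of -1.14 ± 0.11 (limma, adjusted p = 4.98e-06). COL1A1, a chain of the main fibrillar collagen, had 510.3, 450.4 and 535 CPM with OHT and Dox, against 829.6, 751 and 887 CPM with OHT (change -0.72 ± 0.069; limma, adjusted p = 4.98e-06). COL5A1, which helps to start fibrils, had 132, 129 and 138 CPM with OHT and Dox, against 220.3, 197 and 244 CPM with OHT (change -0.72 ± 0.069; limma, adjusted p = 5.05e-06). The groups stood apart in all 3. COL7A1, of the anchoring fibrils, had 11.9, 12.4 and 12 CPM with OHT and Dox, against 21.5, 15.6 and 22.5 CPM with OHT (change -0.68 ± 0.12; limma, adjusted p = 0.00226). COL5A2 and COL3A1 changed by -0.26 and -0.25 and were called lower, and COL8A1, at 0.41, was called higher, a call that was lost without OHT_Dox replicate 1. COL1A2, the partner chain of COL1A1, was not called (-0.18; limma, adjusted p = 0.77). The summed level of the 20 collagen genes was 1937, 1869 and 1960 CPM in OHT_Dox and 2570, 2386 and 2664 CPM in OHT. It was 2095, 2130 and 2182 CPM with Dox alone, against 2880, 2584 and 2677 CPM in Ctrl, where 8 of 18 collagens were lower and 2 higher.

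Among 29 matrix glycoproteins, proteoglycans and cross-linkers 6 fell, none rose and 23 were not called, with a median of -0.053. THBS1, thrombospondin 1, which can activate latent TGF-beta, had 439, 411 and 389.6 CPM in the OHT_Dox libraries and 1036, 838 and 941 CPM in the OHT libraries (change -1.18 ± 0.069; limma, adjusted p = 8.15e-09). It fell to 44.1% of the OHT mean, with a wide gap between the groups. TGFBI, a TGF-beta-induced adhesion protein, had 75.7, 73.8 and 88.1 CPM with OHT and Dox, against 121, 144 and 157 CPM with OHT (change -0.82 ± 0.086; limma, adjusted p = 1.36e-05). SPARC, a collagen-binding glycoprotein, had 1362, 1335 and 1383 CPM with OHT and Dox, against 1816, 1888 and 1943 CPM with OHT (change -0.47 ± 0.052; limma, adjusted p = 2.80e-05). FN1, fibronectin, had 478, 453 and 429 CPM with OHT and Dox, against 734, 566 and 667 CPM with OHT (change -0.52 ± 0.075; limma, adjusted p = 4.55e-04). All 4 were also lower in Dox than in Ctrl, by -1.01 ± 0.065, -0.97 ± 0.062, -0.46 ± 0.064 and -0.28 ± 0.078. HAS2, a hyaluronan synthase, and LOXL2, a collagen cross-linker, were the other 2 called, at -0.93 and -0.24.

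Of 17 tested matrix proteases and inhibitors 5 fell and 2 rose, beside 1.91% of all tested genes lower and 0.576% higher. The plasminogen activators PLAU and PLAT both fell: PLAU had 283, 257 and 271 CPM with OHT and Dox, against 441, 380.3 and 354 CPM with OHT (change -0.53 ± 0.07; limma, adjusted p = 1.95e-04), and PLAT had 41.5, 34.2 and 42.4 CPM with OHT and Dox, against 65.4, 58.4 and 51.6 CPM with OHT (change -0.56 ± 0.091; limma, adjusted p = 0.00157). PLAUR, the receptor that binds the PLAU protein at the cell surface, rose, with 49.5, 45.2 and 50.1 CPM with OHT and Dox, against 34, 31.3 and 36 CPM with OHT (change 0.51 ± 0.074; limma, adjusted p = 5.67e-04). ADAM19, a membrane metalloprotease, had 131, 132 and 138 CPM with OHT and Dox, against 206, 176 and 184 CPM with OHT (change -0.50 ± 0.063; limma, adjusted p = 1.23e-04). The other calls were MMP2 (-0.29) and SERPINE2 (-0.25), lower, and TIMP1 (0.31), higher. Without OHT_Dox replicate 1 the calls were 3 lower and 1 higher. Of 13 integrins 3 fell and none rose: the collagen receptor chain ITGA2 (-0.48 ± 0.086; limma, adjusted p = 0.00353), the VCAM1 and fibronectin receptor chain ITGA4 (-0.36 ± 0.069; limma, adjusted p = 0.00605) and ITGB8 (-0.73 ± 0.15; limma, adjusted p = 0.00896), which as an integrin with the alpha V chain activates latent TGF-beta. ITGB8 had 2.32, 3.45 and 2.52 CPM with OHT and Dox, against 5.02, 4.69 and 4.85 CPM with OHT, and lost its call without OHT_Dox replicate 1 (limma, adjusted p = 0.0577).

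TGF-beta ligands, receptors and response genes showed 7 falls and no rise among 24 tested, with a median of -0.053. Over all tested genes 1.91% were called lower and 0.576% higher. PMEPA1, a TGF-beta-induced inhibitor of its own pathway, had 21.5, 20.1 and 22.3 CPM in the OHT_Dox libraries and 43.6, 44.1 and 41.2 CPM in the OHT libraries, a change of -1.0 ± 0.075 (limma, adjusted p = 2.97e-07), and both groups were tight. TGFB2, one of the ligands, had 89.2, 82.5 and 81.5 CPM with OHT and Dox, against 158, 126 and 132 CPM with OHT (change -0.71 ± 0.075; limma, adjusted p = 1.45e-05). These 2 were called in every fit without 1 library. The rest were weaker: TGFBR1, a receptor, changed by -0.36 ± 0.078, SKIL, a repressor of SMADs, by -0.38 ± 0.085, the activin chain INHBA by -0.51, LTBP2 by -0.37 and SMAD3 by -0.33. The count of 7 became 2 without OHT replicate 1 or OHT_Dox replicate 1, 3 without OHT replicate 3 or OHT_Dox replicate 3, and 4 without OHT_Dox replicate 2. Without OHT replicate 3 a further 2 genes of the list were called higher.

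Among 22 genes of epithelial-mesenchymal transition factors and mesenchymal state 3 fell and none rose, with a median of -0.096. This count and those of the next lists stand beside 1.91% of all tested genes called lower and 0.576% called higher. SNAI2, the repressor also called Slug, had 3.03, 3.52 and 2.97 CPM in the OHT_Dox libraries and 6.51, 7.56 and 7.98 CPM in the OHT libraries, a change of -1.09 ± 0.13 (limma, adjusted p = 5.16e-05), and was also lower in Dox than in Ctrl (-1.28 ± 0.13; limma, adjusted p = 3.67e-05), from 3.29, 4.27 and 3.28 CPM in the Dox libraries and 8.91, 10.1 and 9.26 CPM in the Ctrl libraries. TCF4 and RUNX2 were near the threshold, at -0.31 ± 0.079 and -0.39 ± 0.10 (limma, adjusted p = 0.0473 and adjusted p = 0.0489), and without OHT replicate 1, OHT replicate 3, OHT_Dox replicate 1 or OHT_Dox replicate 2 SNAI2 was the only call. Contractile actin genes moved both ways, with 2 of 20 higher and 2 lower. TAGLN, transgelin, had 44, 41.6 and 41 CPM with OHT and Dox, against 23.3, 29.8 and 29.8 CPM with OHT (change 0.61 ± 0.089; limma, adjusted p = 5.67e-04). MYL12A, a regulatory light chain of nonmuscle myosin, changed by 0.28 ± 0.061, and the kinase MYLK and tropomyosin TPM1 by -0.29 ± 0.067 and -0.27 ± 0.062. MYL12A, MYLK and TPM1 each lost the call in at least 4 of the 6 fits without 1 library. Of 20 YAP and TEAD target genes TGFB2 was the only call, beside 1 more lower gene without OHT replicate 2 and 1 higher gene without OHT_Dox replicate 3.

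**Figure D3:**
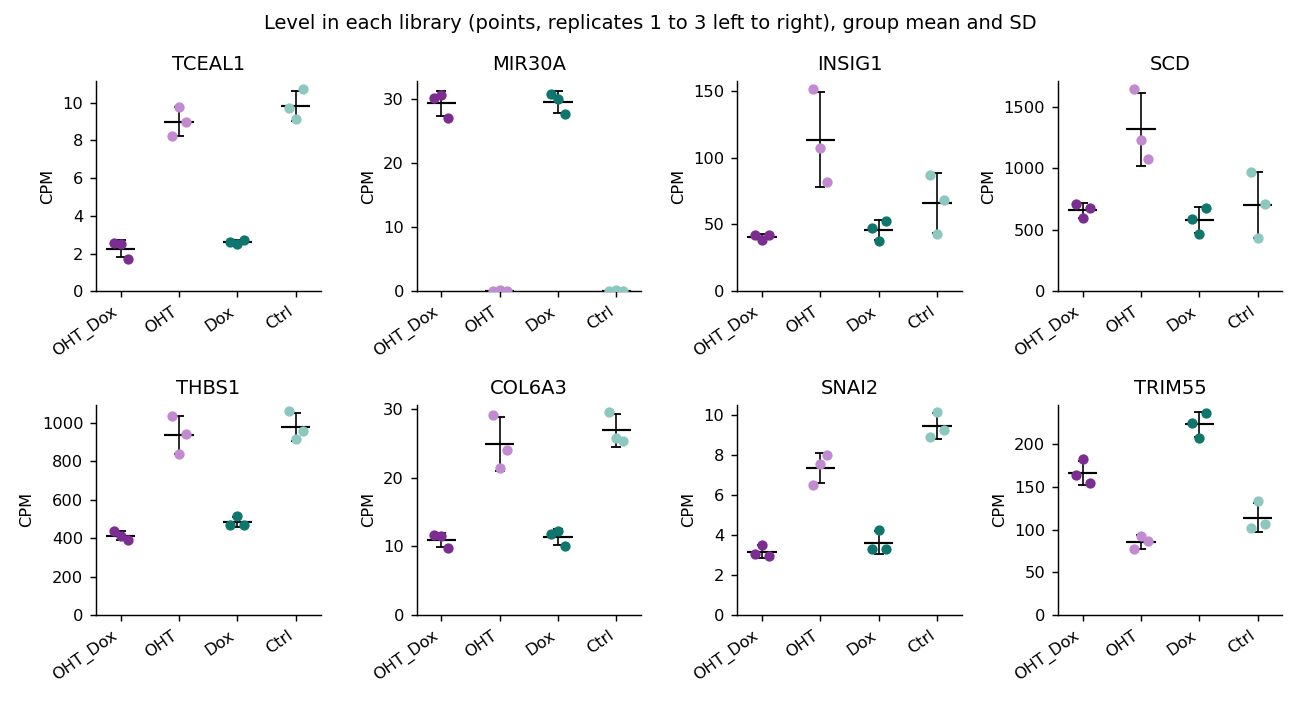
CPM of 8 genes in each library of the groups OHT_Dox, OHT, Dox and Ctrl (points), with group means (long bars) and SD (whiskers, n = 3), each axis starting at 0. TCEAL1, THBS1, COL6A3 and SNAI2 are low in both groups with Dox, MIR30A exceeds 1 CPM in the OHT_Dox and Dox libraries and in no other, and OHT replicate 1 has the highest INSIG1 and SCD of the 12 libraries.

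The other large falls came from genes of varied function. LSM6, a subunit of the ring that binds U6 small nuclear RNA, had 16.8, 19.2 and 14.3 CPM in the OHT_Dox libraries and 37.2, 37.7 and 36.7 CPM in the OHT libraries (change -1.14 ± 0.093; limma, adjusted p = 9.15e-07), close to its change without OHT (-1.15 ± 0.082). RGS4, which switches off signalling by G protein alpha subunits, had 50.2, 46.9 and 47.9 CPM with OHT and Dox, against 102, 98.5 and 99.3 CPM with OHT (change -1.04 ± 0.061; limma, adjusted p = 8.15e-09). Without OHT its levels were 103, 105 and 81.5 CPM in the Dox libraries and 152, 187 and 164 CPM in the Ctrl libraries, so the OHT_Dox libraries were the lowest of the 12. PFKFB4, which sets fructose 2,6-bisphosphate and so glycolytic flux, had 7.9, 8.9 and 10.6 CPM with OHT and Dox, against 21.8, 18.4 and 18.1 CPM with OHT (change -1.05 ± 0.11; limma, adjusted p = 1.73e-05). DIRAS3, an imprinted Ras-like growth suppressor, had 8.84, 9.24 and 8.59 CPM with OHT and Dox, against 17.7, 18.9 and 17.9 CPM with OHT (change -0.99 ± 0.092; limma, adjusted p = 3.50e-06). The groups of these 4 genes did not overlap. SLCO5A1, a member of an organic anion transporter family, had 29.6, 24 and 25.9 CPM with OHT and Dox, against 53, 35.2 and 88.2 CPM with OHT (change -1.04 ± 0.20; limma, adjusted p = 0.00606). Its OHT libraries spread over a range wider than the difference between the group means, and the change was -0.70 without OHT replicate 3, the highest library (limma, adjusted p = 0.0454). IL21R-AS1 had 2.52, 2.03 and 2.7 CPM with OHT and Dox, against 7.91, 5.4 and 3.49 CPM with OHT (change -1.01 ± 0.20; limma, adjusted p = 0.00916), and lost its call without OHT_Dox replicate 2 (limma, adjusted p = 0.0531). It overlaps IL21R, which was also called lower, on the other strand, and since the strand setting of the counting is not given in the sources used here, reads of the pair cannot be told apart.

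Rises were fewer. TRIM55, a muscle RING finger protein, had 163, 182 and 154 CPM in the OHT_Dox libraries and 77.2, 92.6 and 86.6 CPM in the OHT libraries (change 0.96 ± 0.073; limma, adjusted p = 3.81e-07). Without OHT it had 225, 207 and 237 CPM in the Dox libraries and 102, 133 and 107 CPM in the Ctrl libraries (change 0.97 ± 0.084), so both groups with Dox stood above both without. SLC41A2, a magnesium transporter, had 25, 27.7 and 24.9 CPM with OHT and Dox, against 16.2, 14.7 and 14.5 CPM with OHT (change 0.75 ± 0.086; limma, adjusted p = 3.71e-05), with a change of 0.98 ± 0.08 without OHT. CSRP1, a LIM domain protein of the actin cytoskeleton, had 220.0, 225 and 225 CPM with OHT and Dox, against 120.3, 153 and 160.0 CPM with OHT (change 0.64 ± 0.08; limma, adjusted p = 1.23e-04). GALNT16, which starts mucin-type O-glycans, had 5.49, 4.96 and 4.79 CPM with OHT and Dox, against 2.43, 2.48 and 2.87 CPM with OHT (change 0.85 ± 0.13; limma, adjusted p = 0.00105). Without OHT, GALNT16 had 3, 3.33 and 3.1 CPM in the Dox libraries and 2.8, 3.03 and 1.94 CPM in the Ctrl libraries, which was not called (adjusted p = 0.327 in limma). IGFN1 changed by 0.70 ± 0.13 and RGL3 by 0.68 ± 0.13, both with OHT replicates that spread by more than 2 CPM. ATOH8, a basic helix-loop-helix factor, had 4.67, 5.91 and 6.14 CPM with OHT and Dox, against 2.21, 3.47 and 3.76 CPM with OHT (change 0.75 ± 0.17; limma, adjusted p = 0.0176), a call lost without OHT replicate 1, OHT_Dox replicate 2 or OHT_Dox replicate 3 (limma, adjusted p = 0.0663, 0.079 and 0.101). Among the genes chosen after their values were seen, the metallothioneins MT1X and MT2A, which bind zinc and copper, rose. MT1X had 2.58, 2.8 and 3.69 CPM with OHT and Dox, against 0.907, 0.975 and 1.71 CPM with OHT (change 1.07 ± 0.19; limma, adjusted p = 0.00315). MT2A had 39.8, 40.8 and 39.4 CPM with OHT and Dox, against 23.2, 32.3 and 34 CPM with OHT (change 0.44 ± 0.11; limma, adjusted p = 0.0341), and was not called without OHT replicate 1 or any 1 of the OHT_Dox libraries. Neither was higher in Dox than in Ctrl, with changes of -0.28 ± 0.27 and -0.17 ± 0.12.

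Nuclear copies of mitochondrial genes also rose. This list was chosen after the values were seen. Of its 27 genes only 9 passed the filter, and of those 5 were higher and none lower, beside 0.576% of all tested genes called higher. MTATP6P1 had 905, 758 and 838 CPM in the OHT_Dox libraries and 584, 439.9 and 620.1 CPM in the OHT libraries (change 0.62 ± 0.095; limma, adjusted p = 9.54e-04), MTND2P28 had 827, 706 and 682 CPM with OHT and Dox, against 521, 399 and 559 CPM with OHT (change 0.59 ± 0.096; limma, adjusted p = 0.0015), and MTND1P23 had 94.4, 77.9 and 87.8 CPM with OHT and Dox, against 56.4, 50.3 and 63 CPM with OHT (change 0.61 ± 0.083; limma, adjusted p = 2.72e-04). MTATP8P1 (0.61 ± 0.10) and MTCO3P12 (0.47 ± 0.097) were the others, the last of them not called without OHT_Dox replicate 1 or OHT_Dox replicate 3 (limma, adjusted p = 0.0626 and 0.0553). These 5 are annotated on chromosome 1 and are near-identical copies of mitochondrial genes, so reads of a copy and of its mitochondrial original cannot be told apart. All 5 overlap 1 gene on the opposite strand, ENSG00000230021, also called higher (0.51). They are thus 1 locus and not 5 separate results. The genes of the mitochondrial genome were not analysed here. The 27 copies summed to 3290, 2724 and 2986 CPM in OHT_Dox and 2265, 1704 and 2399 CPM in OHT. Without OHT they summed to 2149, 2842 and 3312 CPM with Dox alone, against 2354, 2291 and 2581 CPM in Ctrl, which overlapped. In Dox against Ctrl 2 of the 9 copies were called higher, beside 5.19% of all genes tested there.

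The 2 largest rises in the comparison were at 1 locus on chromosome 6. MIR30A had 30.2, 30.7 and 27.1 CPM in the OHT_Dox libraries and 0.0907, 0.15 and 0.0775 CPM in the OHT libraries, which are 1618, 1620 and 1207 reads against 5, 8 and 4 reads (change 5.62 ± 0.13; limma, adjusted p = 6.25e-15). Its OHT levels lay below the filter, so MIR30A was tested only because its OHT_Dox libraries met the rule. These OHT levels also lay below the pseudocount, which therefore sets much of the size of the change and of its scatter in OHT. LINC00472, the noncoding RNA around MIR30A, had 152, 148 and 129 CPM with OHT and Dox, against 11.4, 7.73 and 8.88 CPM with OHT (change 3.88 ± 0.11; limma, adjusted p = 4.74e-14). A longer noncoding gene with no symbol in the table, ENSG00000269966, overlaps both and had 278, 283 and 237 CPM with OHT and Dox, against 125, 125 and 119.6 CPM with OHT (change 1.11 ± 0.065). Without OHT the levels were close to these, MIR30A having 30.9, 30.1 and 27.7 CPM in the Dox libraries and 0.0727, 0.16 and 0.121 CPM in the Ctrl libraries. MIR30C2, a hairpin of the same family in the same host region, had no more than 3 reads in any of the 6 libraries and was not tested. The hairpins are shown because they share the seed of the miR-30 family (RefSeq, GRCh38.p14, minus strand, RNA letters, the seed of bases 2 to 8 of the 5′ mature miRNA in capitals), MIR30A at chr6:71403551-71403621 and MIR30C2 at chr6:71376960-71377031.
MIR30A: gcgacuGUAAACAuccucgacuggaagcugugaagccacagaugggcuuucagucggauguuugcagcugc
MIR30C2: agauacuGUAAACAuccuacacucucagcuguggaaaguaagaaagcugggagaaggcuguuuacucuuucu
Poly(A) libraries do not measure mature miRNA. Expression vectors often set a hairpin in the frame of the MIR30A precursor, and the sequence of the construct is not given in the sources used here, so whether these reads come from the gene or from the construct cannot be told apart. ENSG00000257522, another noncoding gene without a symbol, on chromosome 14, was the next largest rise, with 13.5, 13.7 and 13.9 CPM with OHT and Dox, against 3.12, 3.19 and 3.02 CPM with OHT (change 1.98 ± 0.11). It and the genes of the MIR30A locus were chosen after their values were seen, since the rule for named genes leaves out genes with no symbol and microRNA and LINC symbols.

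Keratins and gamma protocadherins, chosen after their values were seen, were lower. Of 7 tested keratin genes 4 fell and none rose, beside 1.91% of all tested genes called lower. KRT18 had 524, 482 and 537 CPM with OHT and Dox, against 688, 720.2 and 699 CPM with OHT (change -0.45 ± 0.055; limma, adjusted p = 7.83e-05), and its partner in simple epithelial filaments, KRT8, had 396, 348 and 416 CPM with OHT and Dox, against 501, 527 and 509.9 CPM with OHT (change -0.41 ± 0.062; limma, adjusted p = 8.08e-04). Both were also lower in Dox than in Ctrl, by -0.58 ± 0.055 and -0.51 ± 0.059. KRT80 changed by -0.33 ± 0.056, and the low KRT81 by -0.74 ± 0.18, a call lost without OHT replicate 2, OHT replicate 3, OHT_Dox replicate 1 or OHT_Dox replicate 2 (limma, adjusted p = 0.0942, 0.17, 0.0816 and 0.158). Of 21 gamma protocadherin genes 19 were called lower, with changes of -0.24 to -0.22. Their gene models share exons and their counts were nearly equal, so they are 1 signal counted many times. PCDHGA1, as an example, had 139, 139 and 143 CPM with OHT and Dox, against 169.7, 164 and 159.8 CPM with OHT, and none of the 19 was called without OHT replicate 1, OHT replicate 2, OHT replicate 3, OHT_Dox replicate 1 or OHT_Dox replicate 2. Beside the protocadherins, 61 pairs of called genes overlap in the annotation, 47 of them on opposite strands, and all were called the same way within the pair. The pairs on opposite strands include KRT8 with KRT18 and FADS1 with FADS2, which are counted above as separate genes. As the strand setting of the counting is not given, reads where such genes overlap cannot be told apart.

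Single members of further lists were called, beside 2.48% of all tested genes. That share alone gives a few calls over lists of this size, so small counts say little about a list. PLK2, a p53 target and polo-like kinase, had 176, 158 and 158 CPM with OHT and Dox, against 309, 289 and 283 CPM with OHT (change -0.84 ± 0.06; limma, adjusted p = 1.52e-07) and was the only call among 22 p53 target genes. BHLHE40, a repressor in the circadian clock, had 24.7, 20.1 and 22.9 CPM with OHT and Dox, against 44.7, 40.4 and 38.9 CPM with OHT (change -0.86 ± 0.086; limma, adjusted p = 7.81e-06), the only call of 17 clock genes (2 were lower without OHT_Dox replicate 2). KLF6, an early response factor, had 51.2, 49.4 and 49.9 CPM with OHT and Dox, against 82.4, 74.5 and 75.9 CPM with OHT (change -0.62 ± 0.064; limma, adjusted p = 1.11e-05). Among 27 immediate early and MAPK feedback genes KLF6 and MYC were lower and EGR1 higher (0.52 ± 0.11, not called without OHT_Dox replicate 1 or OHT_Dox replicate 2, at limma adjusted p = 0.0567 and 0.0789), and 4 were lower without OHT replicate 3 or without OHT_Dox replicate 3. DDIT4, an inhibitor of mTORC1, had 4.48, 4.09 and 4.99 CPM with OHT and Dox, against 9.29, 7.54 and 6.71 CPM with OHT (change -0.72 ± 0.13; limma, adjusted p = 0.00446), beside PHGDH lower and SESN2 higher among 22 ATF4 target genes. PHGDH was called in 1 and SESN2 in none of the 6 fits without 1 library. Hypoxia and glycolysis genes had 2 lower (PFKFB4 and SLC2A1) and 2 higher (PKM and BNIP3) of 28. SLC2A1, PKM and BNIP3 changed by -0.25 ± 0.062, 0.26 ± 0.054 and 0.33 ± 0.076, and each lost its call without OHT_Dox replicate 1, where no gene of the list was called higher.

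Of 34 axon guidance genes 3 fell: EPHB2 (-0.62 ± 0.099; limma, adjusted p = 0.00147), a receptor, its ligand EFNB2 (-0.35 ± 0.062; limma, adjusted p = 0.00315), and NRP1 (-0.32 ± 0.071; limma, adjusted p = 0.018), a receptor for semaphorins and VEGF that was not called without OHT replicate 1, OHT_Dox replicate 1 or OHT_Dox replicate 3 (limma, adjusted p = 0.0836, 0.0628 and 0.0607). Lysosome and autophagy genes had 2 falls of 28, in the protease CTSB (-0.38 ± 0.055; limma, adjusted p = 4.70e-04) and the membrane protein LAMP2 (-0.27 ± 0.057, not called without OHT replicate 2 or OHT_Dox replicate 1, at limma adjusted p = 0.0538 and 0.111). The cochaperone DNAJB1 (-0.36 ± 0.064; limma, adjusted p = 0.00332) was the only call of 12 heat shock genes (2 were lower without OHT_Dox replicate 1). H2BC12, a histone H2B gene, had 84.8, 85.9 and 90.7 CPM with OHT and Dox, against 52.5, 62.5 and 65.1 CPM with OHT (change 0.54 ± 0.075; limma, adjusted p = 3.60e-04), the only call of 12 histone genes, and SNHG1 (0.32 ± 0.078), the only one of 17 snoRNA host genes, was called in 1 of the 6 fits without 1 library, the fit without OHT replicate 3, where 2 of these genes were higher. GATA2 was the only marker of the adrenergic state called, at 0.30 (limma, adjusted p = 0.0316). The counts of these lists also stand beside 2.48% of all tested genes, so those of single genes say little about a list.

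No gene was called in either direction in 7 lists of growth and division, beside 2.48% of all tested genes, a share that gives few calls in lists of this size. The lists held 29 tested genes of nucleoli and ribosome assembly, 51 of cytosolic ribosomal proteins, 29 of mitochondrial translation and 30 of the respiratory chain. They also held 26 genes of DNA replication, 25 of mitosis, and 24 that make nucleotides or polyamines. Many of these are textbook MYC targets or markers of cell division. Their medians lay between -0.012 and 0.032, and the summed level of the nucleolar genes was 8147, 8204 and 7870 CPM in OHT_Dox and 7777, 8202 and 8161 CPM in OHT. In Dox against Ctrl, lower genes numbered 9 of the 51 cytosolic ribosomal proteins, 5 of the 30 respiratory chain genes and 2 of the 29 nucleolar genes, beside 2.32% of all genes tested there. The lists of mitochondrial translation (29 genes) and of nucleotides and polyamines (24 genes) had 1 lower gene each. None of the 26 replication genes was called, and 2 of the 25 mitotic genes were higher, beside 5.19% of all genes tested there. No call was made among 16 targets of NF-kB and inflammation, 23 genes induced by interferon, 17 of endoplasmic reticulum stress, 14 of the BCL2 family, 14 amino acid transporters and 14 genes of G1 cyclins with their kinases and inhibitors. Leaving out 1 library gave 1 call among the NF-kB targets (OHT_Dox replicate 1), the BCL2 family (OHT_Dox replicate 3) and the amino acid transporters (OHT replicate 2 or OHT_Dox replicate 2).

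**Figure D4:**
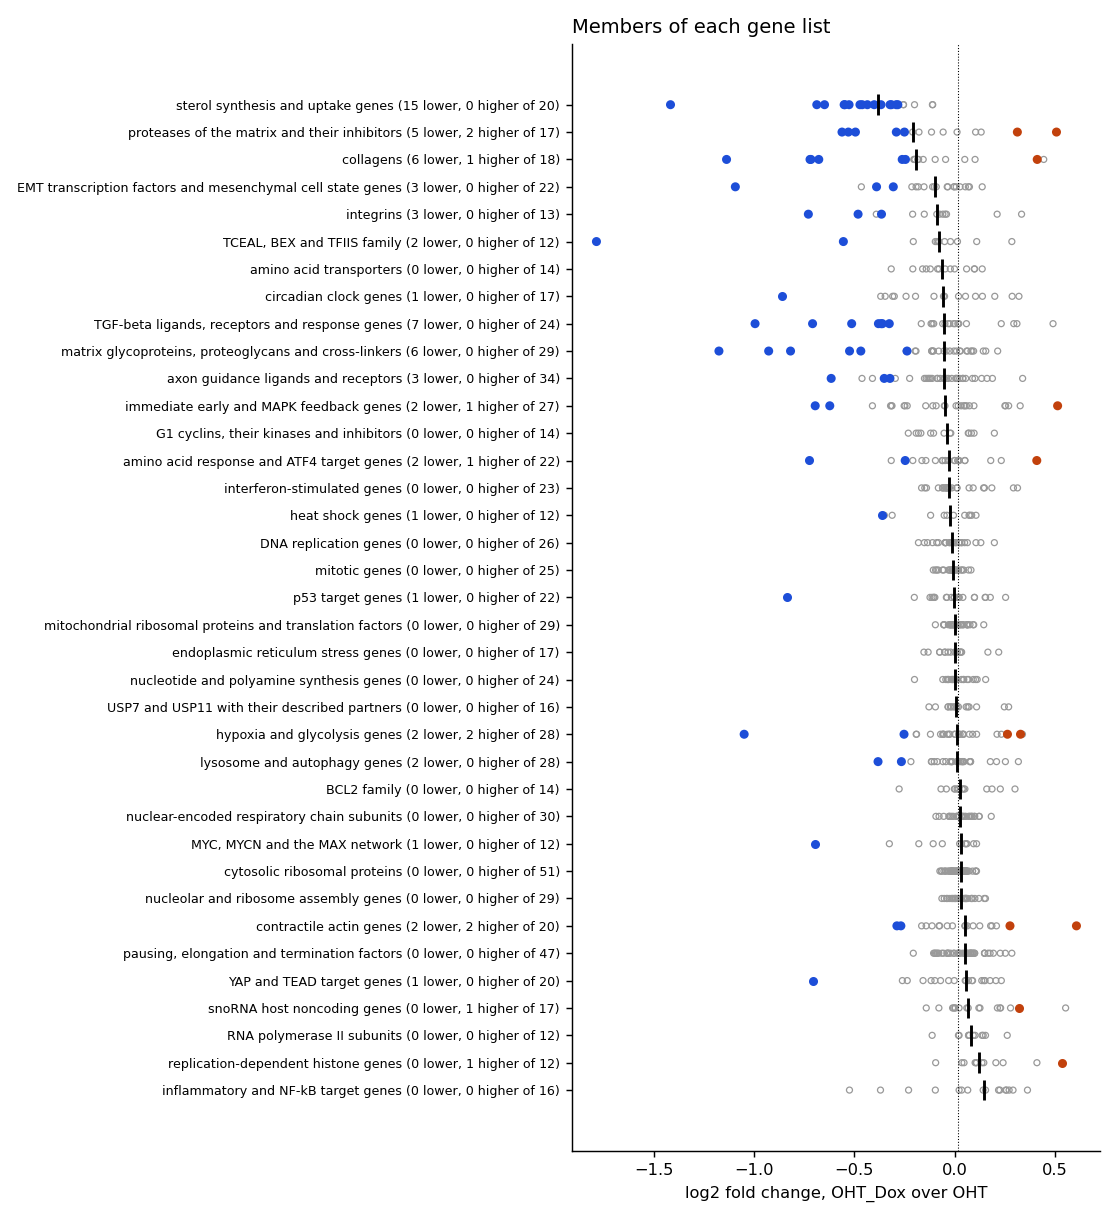
Log2 fold change of OHT_Dox over OHT for each tested member of 37 gene lists (points, blue for called lower, orange for called higher, open for not called), with the median of each list as a black bar and the median of all tested genes, 0.019, as a dotted line. Sterol genes have the lowest median, -0.38, and the proliferation and ribosome lists cluster tightly about the dotted line with no call.

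The effect of the hairpin without MYCN-ER activation, from the other 6 libraries, had the same direction for most of these genes. In Dox against Ctrl, 420 of 18107 tested genes were lower (2.32%) and 940 higher (5.19%). Of 344 genes lower in OHT_Dox and tested in both comparisons, 312 (90.7%) had a negative change in Dox against Ctrl, and 132 were called lower in both, which is 38.4% of the 344 and 31.6% of the 418 lower without OHT. Of the 104 higher genes 93 had a positive change in Dox against Ctrl, and 34 were called in both, which is 32.7% of those with OHT and 3.62% of the 940 without. No gene was called in opposite directions. The sign was the same for 56.8% of all 17791 genes tested in both, and Pearson's r of the changes across these genes was 0.379 and Spearman's rho 0.21, with no library shared between the comparisons and genes that are not independent. The lower genes had a median change of -0.45 with OHT and -0.23 without. They were chosen by their call with OHT, which favours large changes there, so these medians cannot show which effect is larger.

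**Figure D5:**
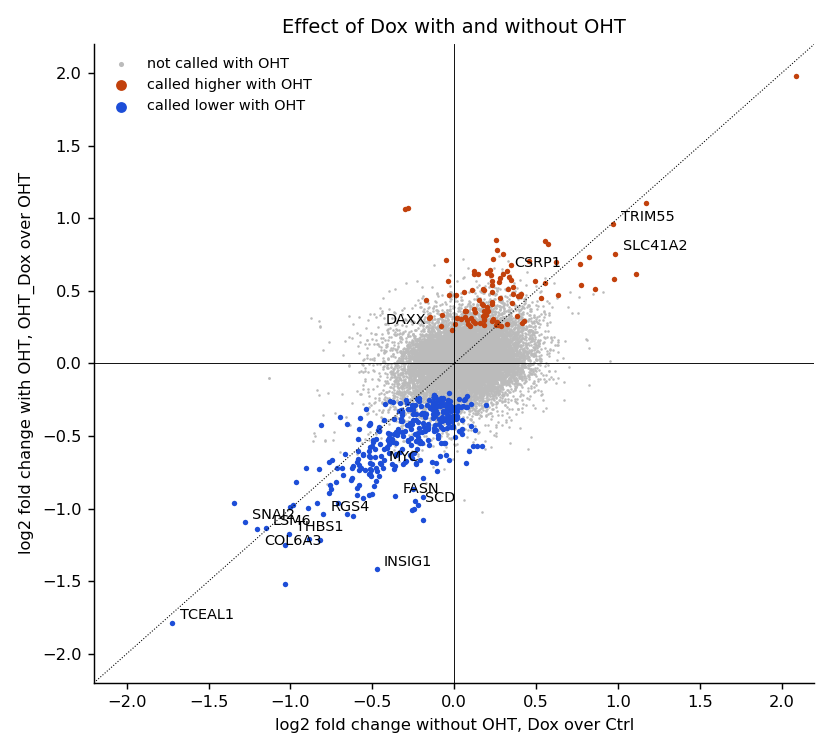
Log2 fold change of OHT_Dox over OHT (y axis) against that of Dox over Ctrl (x axis) for the 17791 genes tested in both, coloured by the call with OHT, with the line of equal change dotted and 2 genes of the MIR30A locus outside the axes. TCEAL1, LSM6, COL6A3, SNAI2 and TRIM55 lie near the line, and INSIG1, SCD and FASN lie below it.

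The test of the difference itself, an interaction fitted over all 12 libraries, called none of 18674 genes in limma. At an unadjusted p under 0.05 there were 2879 genes (15.4%), the smallest adjusted p was 0.221, and edgeR's quasi-likelihood test on the recovered reads called none either. Ctrl replicate 1 decided this count: without it 1041 genes were called. The 5 genes with the smallest interaction p were DAXX, PIGN, PREPL, WDR74 and RB1, all at an adjusted p of 0.221. Without Ctrl replicate 1 each of these 5 passed (limma, adjusted p = 0.0252 for each), with the same sign. DAXX, a histone chaperone and a described partner of USP7, had 27.1, 22.8 and 29.5 CPM with OHT and Dox, against 21.1, 22.5 and 22.6 CPM with OHT, but 19.8, 22.9 and 19.3 CPM in the Dox libraries and 26.7, 29.5 and 29.7 CPM in the Ctrl libraries (interaction 0.71 ± 0.13, unadjusted p = 2.40e-05 in limma). WDR74, a ribosome assembly factor, had 93, 88.3 and 100.3 CPM with OHT and Dox, against 82.1, 87.6 and 88.7 CPM with OHT, but 56, 56.6 and 57.8 CPM in the Dox libraries and 65.1, 73.3 and 67.6 CPM in the Ctrl libraries (interaction 0.39 ± 0.087). Neither was called with OHT. PREPL, a serine hydrolase, changed by -0.013 ± 0.066 with OHT and by 0.43 ± 0.069 without. PIGN, of glycosylphosphatidylinositol anchor synthesis, had 30.3, 31.2 and 30.8 CPM with OHT and Dox, against 36.7, 33.1 and 35 CPM with OHT, and 34.9, 31.8 and 31 CPM in the Dox libraries and 27.7, 25.6 and 26.1 CPM in the Ctrl libraries (interaction -0.47 ± 0.097). RB1, the retinoblastoma protein gene, had 44.5, 44.6 and 39.3 CPM with OHT and Dox, against 50.3, 47.3 and 46.7 CPM with OHT, and 60.4, 55.6 and 54.7 CPM in the Dox libraries and 51.6, 44.5 and 44.2 CPM in the Ctrl libraries (interaction -0.45 ± 0.10).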

How the data were processed

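Poly(A) RNA libraries were made with a directional kit, per the labels' protocols. The deposited table gives CPM by the authors for 28576 genes. Per the submitters' processing notes the tools were STAR, Bowtie, Bowtie2, DRAGEN, featureCounts and FastQC with hg19 and mm10, and neither the step that made this table nor the strand setting is given in the sources used here. All CPM values (100%) were whole reads within 0.01, which gave the depths. CPM are relative to each library's total, so a change in total mRNA per cell would not appear. Genes reaching 0.5 CPM in 3 or more of the 6 libraries were tested with limma 3.58.1 on log2(CPM + 0.5) with a mean trend, two-sided, with Benjamini-Hochberg adjustment over all tested genes and calls below 0.05, a procedure tested on simulated data. Alternatives were edgeR 4.0.16 and DESeq2 1.42.0 on the recovered reads, TMM scaling, other filters and pseudocounts, a replicate block, a length and GC correction, and leaving out each library. GENCODE 29 gave gene types, lengths, GC content and overlaps for 28572 identifiers, without coordinates, and RefSeq (GRCh38.p14) gave promoters and hairpins. By rule the text names TCEAL1, USP11, USP7, TCEA1 and MYCN, the 12 largest rises and 12 largest falls that have a symbol other than LOC, LINC or microRNA ones, no overlap between the groups and a mean of 5 CPM or more on the higher side, the 2 to 4 members of each list with the smallest p, and the 5 smallest interaction p. Further list members are named beside these, and a few list members are counted but not reported by name here. Members and lists were chosen with earlier results of these data known.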

Additional observations from a re-analysis of the deposited data

Results flagged for a closer look

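Among the genes named above, 3 had libraries that stood apart in opposite directions with and without OHT, as did 168 of all tested genes (0.93%). RB1 changed by -0.17 in OHT_Dox against OHT and by 0.28 in Dox against Ctrl. PIGN changed by -0.18 in OHT_Dox against OHT and by 0.29 in Dox against Ctrl. DAXX changed by 0.25 in OHT_Dox against OHT and by -0.47 in Dox against Ctrl. None of the 3 interactions passed adjustment (limma, adjusted p = 0.221 for each) except without Ctrl replicate 1, where all 3 did (limma, adjusted p = 0.0252 for each), and all 3 were named for their small interaction p.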

How the results depend on the processing

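Against 104 higher and 345 lower genes, the higher count was 25 with no filter on low values, 165 with DESeq2, 223 with the replicate block, 243 with the length and GC trend removed and 284 with both. The lower count was 148 with no filter, 459 with the replicate block, 605 with the length and GC trend removed and 641 with both. Leaving out 1 library gave 38 to 100 higher and 197 to 282 lower genes, and for TCEAL1 changes of -1.87 to -1.64. Sterol genes lower numbered 7 with no filter, 12 with all 12 libraries in 1 fit, 17 with the length and GC trend removed and 10 to 15 without 1 library. Same-numbered OHT_Dox and OHT libraries correlated at 0.0655, 0.0301 and 0.0897 in their deviations, each the highest for its number but none above 0.1. The main fit did not pair the libraries by number, and whether the numbers pair them was not tested. The interaction count of 0 became 1041 without Ctrl replicate 1 and ranged from 0 to 1041 over the fits without 1 library; the cause was not tested. Among 117 genes followed under 17 alternatives, 55 of the 103 called kept direction and call throughout, with 205 of 1989 values no longer called. The sign of uncalled genes turned for USP7 (TMM -0.012, edgeR -0.0018, DESeq2 -0.0016, without 1 library -0.035 to 0.049) and PREPL (GC and length trend removed 0.025, with the replicate block 0.025, without 1 library -0.055 to 0.020). Of the 449 calls, 435 were made by edgeR, 441 by DESeq2 and 436 with TMM. Genes below the filter, 10506 of 28576, were too low to compare at this depth.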
